A study of Magallana angulata with 3 samples.

Results

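In adductor muscle of the Fujian oyster (Magallana angulata), 139 genes stood at least 2-fold higher in the triploid library than in either of 2 diploid libraries. On the scale of the rule given below, the diploid libraries lay less than 2-fold apart in these genes. The members were chosen on these very values. With RPKM (reads scaled to gene length and to the read total of the library) written as log2(RPKM + 1), the rule asked for a difference of at least 1 between T and DF and between T and DM, for a difference under 1 between DF and DM, and for a mean over the 3 libraries of at least 10 and under 1000 RPKM. Every 2-fold limit of the rule is thus a limit on RPKM + 1. In RPKM itself, some members had DF and DM more than 2-fold apart, and some genes left out were more than 2-fold higher in T. The 139 genes were 2.30% of the 6046 genes in that range, among 28027 identifiers in all. Their differences between libraries are therefore a description of how the genes were picked and carry no test.

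The libraries were T, from triploid oysters, and DF and DM, from diploid oysters, with 1 library each. Per the labels' protocols, the triploids were made by chemically blocking release of the second polar body in eggs of the parents that also gave the diploids, and every animal was then raised for a year with like temperature and feed. The labels do not say how many oysters went into a library, and they leave the letters F and M unexplained. There is no replicate of any library, so a difference between T and the diploids cannot be told apart from a difference between animals or between library preparations. In such bulk tissue, more cells of a type and more RNA per cell cannot be told apart either.

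The adductor is the muscle that closes the shell. It joins a quicker striated part, which snaps the valves shut, to a smooth catch part, which holds them closed at little cost in energy. Retaining the second polar body leaves an additional maternal chromosome set in every cell, and triploid oysters made in this way are farmed because their reproduction is largely suppressed. RPKM divides by the read total of a library. An equal rise of every gene in triploid cells would therefore leave no trace in these values. A member is a gene that took a larger share of the reads in T than in either diploid library. The deposited tables pair no identifier with a gene name, and the RefSeq gene table for Magallana angulata held 0 of the 28027. The members are given by identifier for that reason, with no role or position, and the muscle label could not be set against marker genes.

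The read totals behind the values, recovered from the spacing of low RPKM values, were 2137859 in T, 1805591 in DF and 2057805 in DM. One read in a gene of 1 kb was worth 0.468 RPKM in T, 0.554 in DF and 0.486 in DM. Reads and lengths per gene are lower limits, since a factor shared by the reads and the length of a gene cannot be seen. All intervals given here are exact 95% intervals of read counts (Poisson for a level, Clopper-Pearson for a ratio or a share). They cover counting error only.

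Summed over the list, the members took 1.60% of all reads in T (34266 reads, 95% interval 1.59% to 1.62%). Their share was 0.409% in DF (7392 reads, 0.400% to 0.419%) and 0.422% in DM (8692 reads, 0.414% to 0.431%). The share in T was 3.92 times that in DF and 3.79 times that in DM. The sum was uneven, with 42.8% of the members' reads in T coming from 5 genes (CGI_10014726, CGI_10012330, CGI_10004164 and CGI_10003417, described below, and CGI_10019752). Without those 5, the share was 0.917% in T, 0.257% in DF and 0.257% in DM.

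Most members were genes of modest level. Their RPKM in T had a median of 40.5 and ran between 16.7 and 1764, with quartiles at 26.9 and 73.8. In DF the median was 10.5 RPKM, with quartiles at 6.68 and 20.5. In DM the median was 10.4 RPKM, with quartiles at 6.89 and 19.7. The medians of the diploid libraries were thus close to each other. Over all 6046 genes of the range, the median level was 27.0 RPKM in T, 33.2 in DF and 18.7 in DM. In 57 members both diploid libraries were under 10 RPKM, so that these genes entered the range through their level in T, and in 63 both diploid libraries were at or above 10 RPKM. In the other 19 a single diploid library reached it.

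The differences were mostly moderate. The median ratio of T to DF was 3.40-fold and that of T to DM 3.78-fold, with the 1 member that had no diploid reads placed at a floor of 3 reads per library. On log2(RPKM + 1), the lesser of the 2 differences (T minus DF or T minus DM, whichever was smaller) had a median of 1.53 among the members, against -0.37 over all 6046 genes. Read as a fold, the lesser difference was under 3 in 75 members, from 3 to under 4 in 32, from 4 to under 8 in 23, and at least 8 in 9. By the rule the lesser difference starts at 1, and the plot of the 2 differences shows that the members crowd towards that limit.

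**Figure D1:**
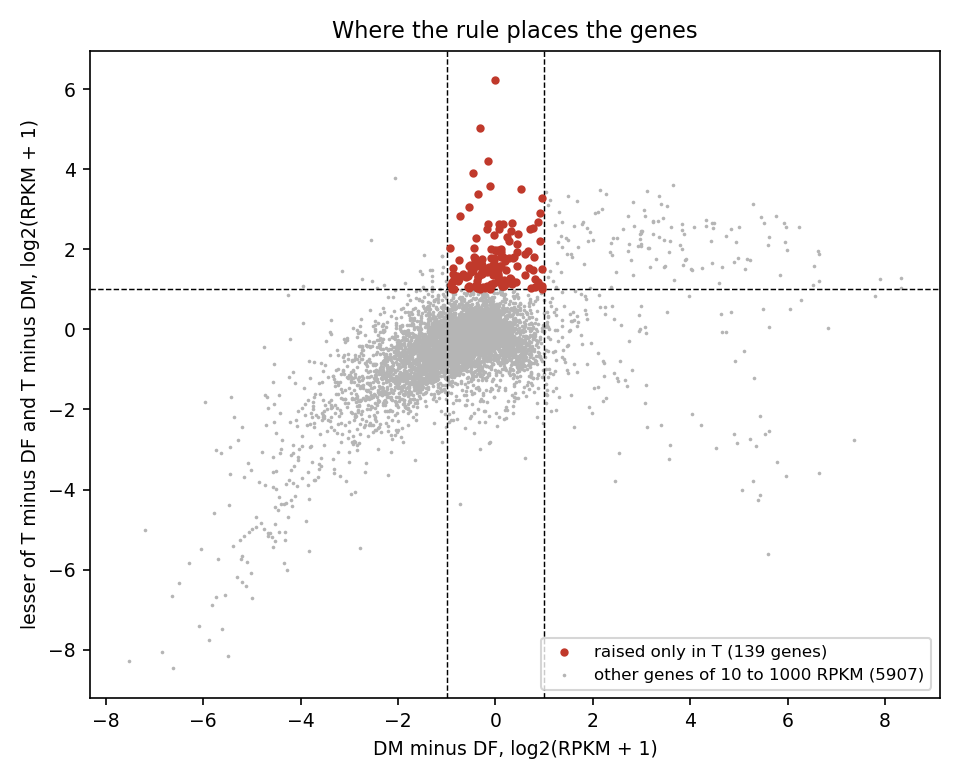
Each point is 1 of the 6046 genes with a mean of 10 to under 1000 RPKM. The horizontal axis is the difference DM minus DF and the vertical axis the lesser of T minus DF and T minus DM, both on log2(RPKM + 1), and dashed lines mark the limits of the rule at -1 and 1. The 139 members (red) fill the upper middle field, most of them between 1 and 3, with few points above 4. The field to its right holds genes that were also high in T but lay at least 2-fold apart in DF and DM.

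At the limit of the rule, CGI_10021175 was the member closest to falling out. It had 19.1 RPKM in T, against 9.04 in DF and 7.02 in DM, and a lesser difference of 1.0005. The nearest genes left out were CGI_10026892, with 16.4 RPKM in T, against 7.69 in DF and 7.56 in DM, and CGI_10027932, with 21.8 RPKM in T, against 10.4 in DF and 7.16 in DM. Their lesser differences were 0.9989 and 0.9982, so that members and non-members at this edge could not be separated at this depth. The mean level of the members ran between 10.04 and 768 RPKM, and the gene just below the range that met the rest of the rule had 9.87. The widest distance between DF and DM was 0.96 among the members and 1.004 in the closest gene left out for it.

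The largest difference relative to both diploids, among genes seen in all 3 libraries, was that of CGI_10003417. Its level in T was 653 RPKM (2661 reads, 629 to 679), against 18.9 RPKM in DF (65 reads, 14.6 to 24.1) and 15.1 RPKM in DM (59 reads, 11.5 to 19.4), over a recovered coding length of 1905 nt. The ratio of T was 34.6-fold to DF (27.0 to 44.9) and 43.4-fold to DM (33.5 to 57.2), and the intervals of DF and DM overlapped. CGI_10010440 had 113 RPKM in T (181 reads, 97.4 to 131), against 6.67 RPKM in DF (9 reads, 3.05 to 12.7) and 4.55 RPKM in DM (7 reads, 1.83 to 9.38). Its ratio was 17.0-fold to DF (8.75 to 37.7) and 24.9-fold to DM (11.8 to 62.8). The interval of T lay far above those of both diploid libraries, a gap the gene was picked for. The intervals of DF and DM overlapped.

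The remaining 2 of the 4 members at the top of the list had short recovered lengths and few diploid reads. CGI_10007480 had 126 RPKM in T (94.0 to 166), against 5.86 RPKM in DF (0.710 to 21.2) and 5.14 RPKM in DM (0.623 to 18.6). With 51 reads in T and 2 in each diploid library, over 189 nt, its ratio of 21.5-fold to DF had a 95% interval of 5.66 to 183. CGI_10013287, over 108 nt, had 17 reads in T (73.6 RPKM, 42.9 to 118) and 0 in DF and DM. Against a floor of 3 reads per library the level in T was at least 4.79-fold higher than that of DF and at least 5.45-fold higher than that of DM, before the counting error of the 17 reads in T. With that error included, the lower 95% limits of the ratios were 3.49 and 3.97. Its place at the head of the list, at 6.22 on log2(RPKM + 1), depends on the added 1 and is no measure of its fold. Across all 9 members with a lesser difference of at least 8-fold, RPKM in T ran between 31.2 and 653, while no value in DF passed 18.9 and none in DM passed 15.1. Of these 9 genes, 7 had at most 10 reads in each diploid library. All but CGI_10003417 had both diploid libraries under 10 RPKM and so entered the range through their level in T. Low diploid values in these genes therefore follow from how they were picked.

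The members with the highest level in T showed smaller ratios. CGI_10004164 had 1764 RPKM in T (1698 to 1832), against 256 RPKM in DF (229 to 285) and 285 RPKM in DM (258 to 313). The ratio of T to DF was 6.90-fold (6.15 to 7.76) and that of T to DM 6.20-fold (5.59 to 6.88). CGI_10021394 had 1295 RPKM in T (1231 to 1361), against 212 RPKM in DF (184 to 242) and 368 RPKM in DM (334 to 405). CGI_10012330 had 1241 RPKM in T (1201 to 1283), against 380 RPKM in DF (356 to 406) and 411 RPKM in DM (387 to 435). CGI_10014726 had 1077 RPKM in T (1042 to 1113), against 260 RPKM in DF (241 to 279) and 315 RPKM in DM (296 to 335). The ratio of T to DM was 3.52-fold in CGI_10021394 (3.16 to 3.93), 3.02-fold in CGI_10012330 (2.83 to 3.23) and 3.42-fold in CGI_10014726 (3.19 to 3.67). In all 4 of these genes T lay above both diploid libraries with no overlap of counting intervals. The genes were picked for such a gap on the same reads, so that it lends the differences no support. On the deposited scale, the intervals of DF and DM overlapped in CGI_10004164 and CGI_10012330, while in CGI_10021394 and CGI_10014726 DM lay above DF beyond counting error. The overlap depended on the scale. After the median-of-ratios scaling described below, T minus DF was 3.07 and T minus DM 2.12 on log2(RPKM + 1) in CGI_10004164. In CGI_10012330 they were 1.99 and 1.09, so that DM stood above DF in these genes as well.

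**Figure D2:**
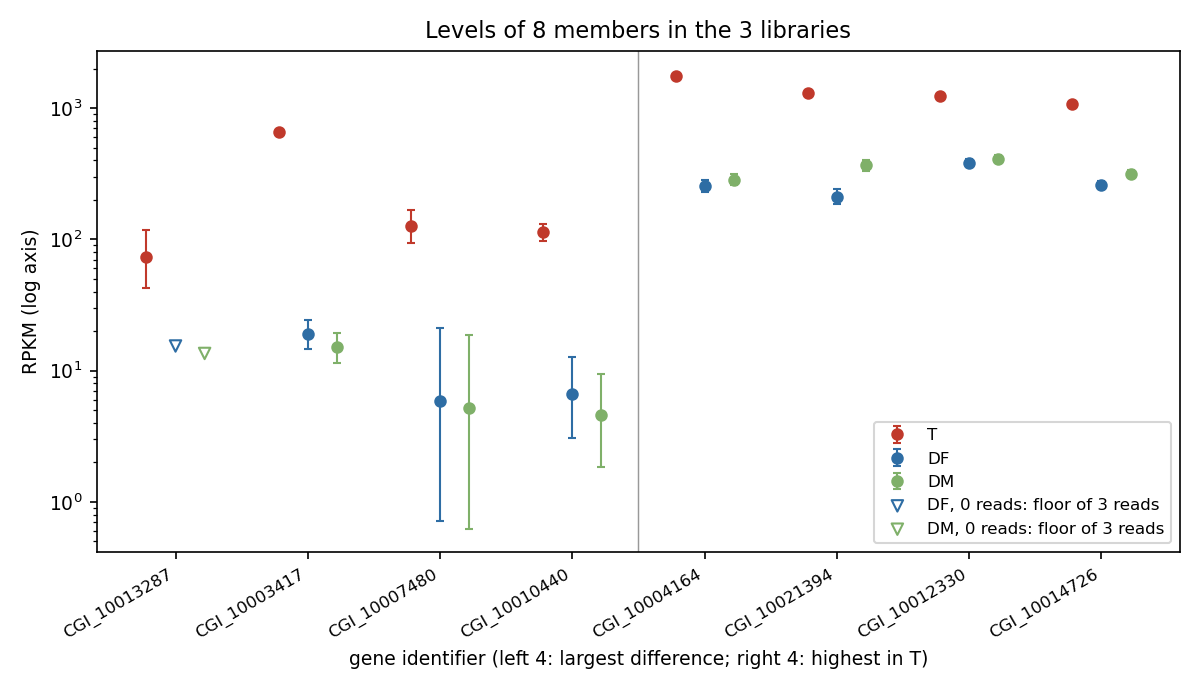
RPKM on a log axis in T, DF and DM, in that order within each gene, for the 4 members with the largest lesser difference (left) and the 4 with the highest level in T (right). Points are the single library values, bars the 95% Poisson intervals of the reads, and open triangles the floor of 3 reads (15.4 RPKM in DF, 13.5 in DM) where a library had 0 reads. T lies above both diploid libraries in all 8 genes, with wide diploid intervals in CGI_10007480 and CGI_10010440.

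Reads set how well each difference was measured. The members had a median of 75 reads in T, against 18 in DF and 19 in DM, and 52 of them had at least 100 reads in T. In 133 members (2.20% of the 6046 genes) the interval of the ratio left out 1 against each diploid library. In 6 it did not, and these had between 13 and 21 reads in T. The whole interval lay above 2-fold against both diploid libraries in 63 members. In the other 70 of the 133 genes, a difference under 2-fold from at least 1 diploid library was within counting error. The members were picked for a high ratio on these same reads, and the intervals take no account of that choice. These counts therefore describe the size of the ratios and the depth of the reads, and lend the differences no support.

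**Figure D3:**
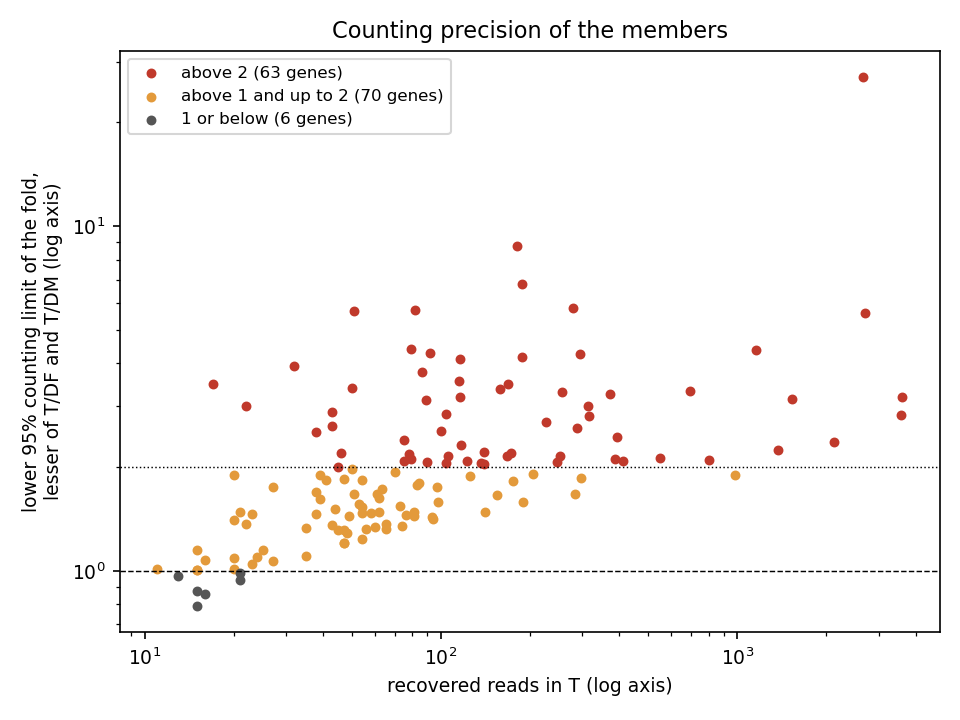
Recovered reads in T (horizontal, log axis) against the lower 95% counting limit of the fold, taken from T/DF or T/DM, whichever is lower (vertical, log axis), for the 139 members. The dashed line marks 1 and the dotted line 2. The limit lies above 2 in 63 genes, between 1 and 2 in 70, and at or below 1 in 6, all of which have 21 reads or fewer in T. The genes were picked on these same values, which the limits do not take into account.

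Membership was spread over levels and lengths. Members made up 2.81% of genes with a mean of 10 to under 20 RPKM (62 of 2207), 2.36% at 20 to under 50 RPKM (49 of 2075), 1.49% at 50 to under 100 RPKM (13 of 872) and 1.68% at 100 to under 1000 RPKM (15 of 892). The median lesser difference in these classes was 1.53, 1.56, 1.32 and 1.57 on log2(RPKM + 1), with no steady trend. The recovered coding length had a median of 795 nt in the members and 837 nt in the other 5907 genes of the range. These lengths are lower limits, and they ran down to 18 nt in the range. Members were 2.93% of genes under 300 nt (19 of 649), 2.32% from 300 to under 900 nt (60 of 2582), 2.28% from 900 to under 1800 nt (44 of 1932) and 1.81% of longer ones (16 of 883). Short genes collect fewer reads at a given RPKM. The longest member, CGI_10005381 (named after its values were seen), had a recovered length of 13395 nt and a level of 40.5 RPKM in T (1161 reads), against 6.41 RPKM in DF (155 reads) and 8.02 RPKM in DM (221 reads).

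Beyond the range of the rule, its other conditions were met by 447 of the 8218 genes with a mean of 1 to under 10 RPKM (5.44%) and by 0 of the 138 genes at 1000 RPKM or more (0.00%). The 447 low genes had a median of 11 reads in T. In 220 of them the counting interval left out 1 against each diploid library, and 102 had no read in either diploid library.

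Several members carried consecutive identifiers. Of 86 places next to a member's number that held a gene of the range, 10 held another member, which is 11.6%, beside 2.30% of all genes in the range. For genes raised in the same way in DF alone, the like figure was 12.1% (44 of 363), beside 10.01% of all genes in the range, and for DM alone it was 0 of 13, beside 0.513%. The 10 genes formed 5 pairs, each counted from both sides, which are named here after their values were seen. The count of neighbours was not among the planned results. CGI_10004165, next to CGI_10004164, had 257 RPKM in T, against 62.8 in DF and 85.8 in DM, and the recovered lengths of the pair were 714 and 717 nt. CGI_10013199 had 48.2 RPKM in T, against 6.64 in DF and 6.99 in DM, and CGI_10013200 had 33.6 in T, against 4.63 in DF and 4.06 in DM. In the pair CGI_10028782 and CGI_10028783, T had 71.0 and 102 RPKM, DF 13.8 and 29.0, and DM 10.3 and 21.4. The remaining pairs were CGI_10013692 with CGI_10013693, at 46.8 and 109 RPKM in T, 10.5 and 38.8 in DF, and 11.6 and 37.1 in DM, and CGI_10021175, given above, with CGI_10021176, at 22.2 RPKM in T, 4.09 in DF and 5.64 in DM. After the median-of-ratios scaling described below, CGI_10004165, CGI_10021175 and CGI_10021176 no longer met the rule, so the pairs that hold them were broken. The sources used here do not say whether consecutive numbers are neighbours in the genome or copies of one gene, and reads shared between near-identical copies would make both values of a pair uncertain.

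The distance between the diploid libraries set much of who could be a member. Of the 6046 genes, 298 (4.93%) stood at least 2-fold higher in T than in both, and 159 of these were left out because DF and DM were at least 2-fold apart. In 134 of the 159 DM was above DF, and in 25 it was below. The like split over all genes with DF and DM that far apart was not computed. Over the 6046 genes the median of DM minus DF was -0.68 on log2(RPKM + 1) as deposited. Within the members, DM was above DF in 63 genes (45.3%), below it in 75 and equal in 1. Among all 3539 genes with DF and DM less than 2-fold apart, DM was above DF in 977 (27.6%). The median of DM minus DF was -0.03 in the members and -0.34 in those 3539 genes, on log2(RPKM + 1). This balance turned with the scaling of the libraries described below: DM was above DF in 124 of the 139 members after median-of-ratios scaling (median 0.70) and in 123 after trimmed mean scaling (median 0.65). The rule limits this distance, so these values describe the choice of genes as well as the libraries.

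The same rule was applied with each diploid library in the place of the triploid one. Beside the 139 genes of T (2.30% of 6046), it gave 605 genes raised in DF alone (10.01%) and 31 raised in DM alone (0.513%). With the counting interval asked for as well, T had 133 such genes (2.20%), DF 580 (9.59%) and DM 25 (0.413%). As deposited, the triploid count thus lay between those of the diploid libraries. These counts depended on how the libraries were scaled to one another. The most abundant gene of all 3 libraries, CGI_10018876, took 23.9% of the reads of T, 17.6% of those of DF and 33.8% of those of DM, and RPKM divides every other gene by a total that includes it. Over the 6046 genes, the median of T minus DF was -0.29 and that of T minus DM 0.44 on log2(RPKM + 1) as deposited, against -0.01 and -0.05 after median-of-ratios scaling, in which each library is divided by its median ratio to the geometric mean of the 3. The part of CGI_10018876 in these shifts was not tested.

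After that scaling the rule gave 133 genes in T (2.24% of 5933), 317 in DF (5.34%) and 263 in DM (4.43%). Trimmed mean scaling gave 141 genes in T (2.38%), 326 in DF (5.50%) and 218 in DM (3.68%). Equal sums of RPKM gave 142 in T (2.36%), 566 in DF (9.40%) and 35 in DM (0.581%). With the 20 most abundant genes left out of those sums, the counts were 132 in T (2.22%), 445 in DF (7.48%) and 120 in DM (2.02%). After median-of-ratios and trimmed mean scaling the count of T was the lowest of the 3. Over the 5 scalings the number in T moved least, but the genes changed. Of the 139 members, 81 were among the 133 genes called after median-of-ratios scaling. After that scaling, 102 of the 139 were still at least 2-fold above both diploid libraries, and 33 now had DF and DM at least 2-fold apart. The median of T minus DF over the 139 was 1.70 as deposited and 1.97 after scaling, and that of T minus DM was 1.82 and 1.36. Under all 5 scalings tried, 81 of the 139 members met the whole rule each time. These 81 include CGI_10013287, CGI_10003417, CGI_10007480, CGI_10010440, CGI_10004164 and CGI_10012330. CGI_10021394 and CGI_10014726 fell out under some scalings. The lowest lesser difference of any member under any scaling was 0.52. The members were chosen at least 2-fold above both diploid libraries on the deposited scale, so that T staying above them is no sign of stability.

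**Figure D4:**
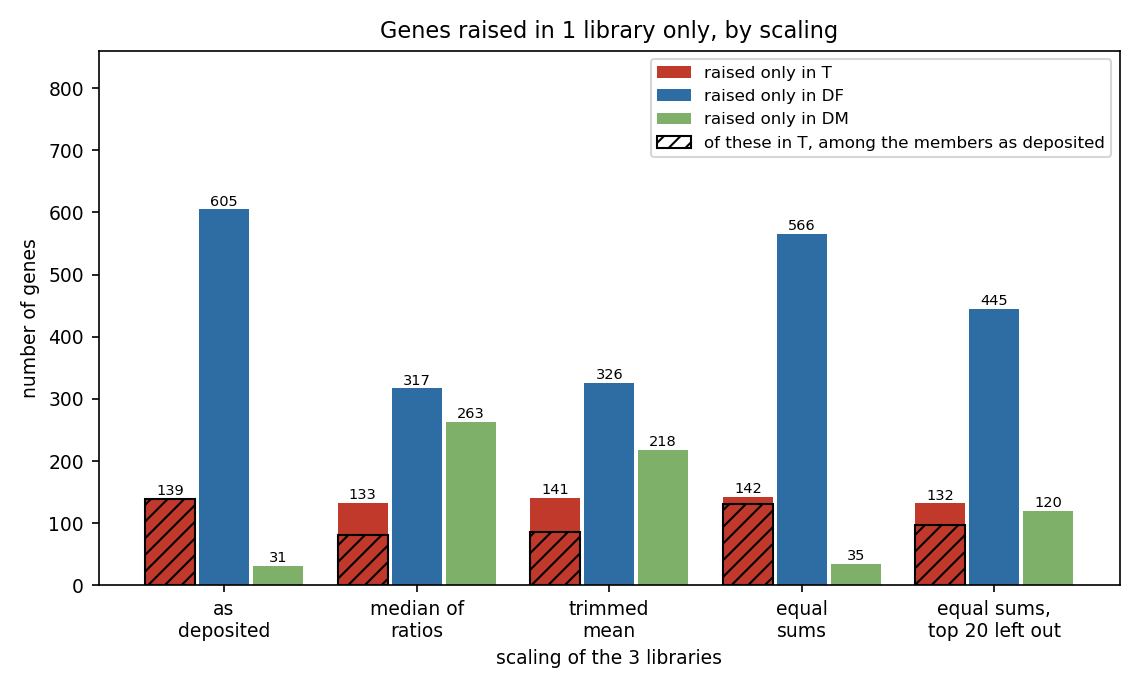
Number of genes that the rule called raised in T, DF or DM alone (bars in that order) under 5 scalings of the libraries. The hatched part of each T bar counts the genes that are among the 139 members as deposited. The T bars stay between 132 and 142 genes while their hatched part runs between 81 and 139, the DF bars run between 317 and 605, and the DM bars between 31 and 263.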

How the data were processed

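Messenger RNA of adductor muscle was selected with oligo(dT) and sequenced on the Illumina platform, as the labels' protocols state. The authors deposited RPKM values, 1 table per library, as the names of the deposited files state. The submitters' processing notes name TopHat, with no version. For the counting program, genome build and annotation, nothing is given in the sources used here. Read totals were recovered from the RPKM values: the commonest ratio between 2 libraries gave the ratio of their totals, and the spacing of the 400 lowest values in DF gave the totals, assuming coding lengths in multiples of 3 nt. Of those 400 values, 357 lay on the spacing of the totals kept. For each gene the shortest length that gave whole reads in every library was then taken. Whole reads came out for 100% of the 19931 genes above 0, within 7.6e-05 of a read. Recovered reads made up 97.64% of the total in T, 97.46% in DF and 98.03% in DM. The recovery, the rule and the intervals were run on simulated data with counting noise only, in which DF and DM had equal rates. These libraries differ from that setting, so the simulation does not show how the rule behaves on them.

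The rule was applied to log2(RPKM + 1) with Python 3.11.15, numpy 2.4.6 and scipy 1.17.1. With 1 library per label no test was made. The scale understates the change of low genes. Alternatives were 2 other pseudocounts, 4 scalings, other limits, the counting interval, and each diploid library left out. Named members were the 4 with the largest lesser difference, the 4 highest in T, and those nearest the limit. Others are marked where they were named after their values were seen. The members, lists and rules were chosen with earlier results of these data known. Lists of muscle and cell type genes fixed as product names were not run, since no identifier had a name.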

Additional observations from a re-analysis of the deposited data

How the results depend on the processing

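The number of genes raised in T alone was 139 as deposited. It stayed within 1.5 times that value, between 102 and 142, under both other pseudocounts, the 4 other scalings, no upper limit on the mean, DF and DM less than 1.5-fold apart, the counting interval, and the interval together with median-of-ratios scaling, a setting chosen after seeing the data that gave 122 genes, 76 of them members. A steady count was not a steady list. Of the 135 genes at a pseudocount of 5, 108 were members, and of the 137 at 0.1, 131 were. Under the 4 other scalings, between 81 and 131 of the genes called were members. A mean of 1 to under 1000 RPKM gave 586 genes, no filter 1053, and a mean of 20 to under 1000 RPKM 77. Another number of genes was tested each time, and the share called differed with the level as well. It was 5.44% at 1 to under 10 RPKM (447 of 8218), against 2.30% at 10 to under 1000 RPKM (139 of 6046). Asking for 1.5-fold gave 302 genes, asking for 4-fold gave 32, and no limit on the difference of DF and DM gave 298, because each setting loosens or tightens the rule. With a diploid library left out, the single comparison that remained gave between 473 (without DM) and 1256 genes (without DF), each time with 138 of the members. There the mean was taken over the libraries that remained, and no condition on DF and DM was left. Another set of genes was therefore tested, and the share called was not computed. Without the 5 members with the most reads in T, the members' share of reads was 0.917% in T, 0.257% in DF and 0.257% in DM. The median coding length was 831 nt in the 133 members that met the counting interval, and 672 nt in the 133 genes, 81 of them members, that the rule called after median-of-ratios scaling. For the 9 named members, chosen for such differences, the difference was at 1 or more on the log2 scale in 105 of 108 recomputations, and the 3 others were all of CGI_10021175, at the edge of the rule. Depth limits the low genes, and each fold of a gene with few diploid reads has a wide interval. No paired analysis was possible because the labels give no replicate numbers and 1 library each.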
